A study of Mus musculus with 6 samples.

Results

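The foam cell lipid handling genes are 10 mouse genes of cholesterol and fatty acid traffic in plaque macrophages, namely Cd36, Msr1, Lpl, Cd68, Plin2, Abca1, Abcg1, Trem2, Gpnmb and Spp1. They were taken by symbol, so that every probe set to which the array annotation gives one of these symbols was included. This gave 20 of the 45101 probe sets of the array, and they stood for 9 of the 10 genes. No probe set was assigned to Spp1, which was not analysed here. Gene expression was measured in whole aortas with 2 arrays each of vitamin E-treated ApoE-/- mice, untreated ApoE-/- mice and B6 mice, and RNA of 3 aortas was pooled on each array. All mice had a C57BL/6J background, were 32 to 34 weeks old when aortas were taken and ate chow with 7% fat and 0.15% cholesterol. The ApoE-/- mice of both groups lacked functional apolipoprotein E, and the B6 mice were non-transgenic. Vitamin E was added to the diet at 2000 IU per kg for 7 months, beginning at an age of 4 to 6 weeks. Untreated ApoE-/- mice are hypercholesterolaemic and develop plaques, and the comparisons ask how far their aortas differ from those of B6 mice and whether the antioxidant vitamin E changes that. The arrays measure RNA of the whole tissue, in which fewer cells of a type and less RNA per cell cannot be told apart. Sample numbers of the vitamin E arrays lie apart from those of the untreated ApoE-/- and B6 arrays, which lie together. Array dates were not given, so a batch that follows vitamin E cannot be told apart from it.

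Foam cells form when macrophages of the vessel wall take up modified lipoproteins faster than they release the cholesterol. The scavenger receptors encoded by Cd36 and Msr1 bring the lipid in, lysosomes hydrolyse it, and the cholesterol is then either re-esterified and stored in droplets, which are coated by the product of Plin2, or handed to lipid acceptors outside the cell by the transporters Abca1 and Abcg1. Several of these genes are not private to macrophages. Adipocytes and muscle fibres use Cd36 and lipoprotein lipase for fatty acid uptake, and Plin2 coats droplets in most cells.

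The clearest differences lay between the ApoE-/- groups and B6 aortas. Signal intensities of Gpnmb, Cd68 and Abcg1 were higher in both ApoE-/- groups than in B6 aortas, between 1.64-fold and 2.81-fold, while those of Cd36 and Lpl were lower in both, between 1.25-fold and 1.33-fold by the brightest probe set of each gene. By the brightest probe set of each gene, only Plin2 passed the test between vitamin E-treated and untreated ApoE-/- aortas, with a 1.29-fold lower signal intensity after vitamin E, and a dimmer probe set of Cd36 was also called lower there. A call here is an adjusted p under 0.05 by limma, and a probe set was tested where the mean of some group reached a signal intensity of 100. This left 12 of the 20 probe sets and 8 genes, each represented by its probe set with the highest mean signal intensity. Of these 8 genes, 0 were higher and 1 was lower in vitamin E-treated relative to untreated ApoE-/- aortas, while 8.18% of all 10646 genes tested were higher and 7.65% were lower. At an unadjusted p under 0.05 the numbers were 0 and 4. Without untreated array 1 or 2, or B6 array 1 or 2, 0 of the 8 genes were called, and without vitamin E array 1 there were 3. Between untreated ApoE-/- and B6 aortas 4 genes were higher and 2 lower, against 21.2% and 20.8% of all genes, and without untreated array 2 or B6 array 1 there were 3 calls in place of 6. For vitamin E-treated ApoE-/- against B6 aortas 3 were higher and 3 lower, against 21.1% and 21.7% of all genes. Median log2 fold changes of the 8 genes were -0.11, 0.15 and -0.11 in these comparisons, against -5.6e-05, 0.016 and -0.0016 over all genes. The 3 comparisons share arrays and are not independent of each other. The shares over all genes given here are the background for the counts of every gene list below.

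**Figure D1:**
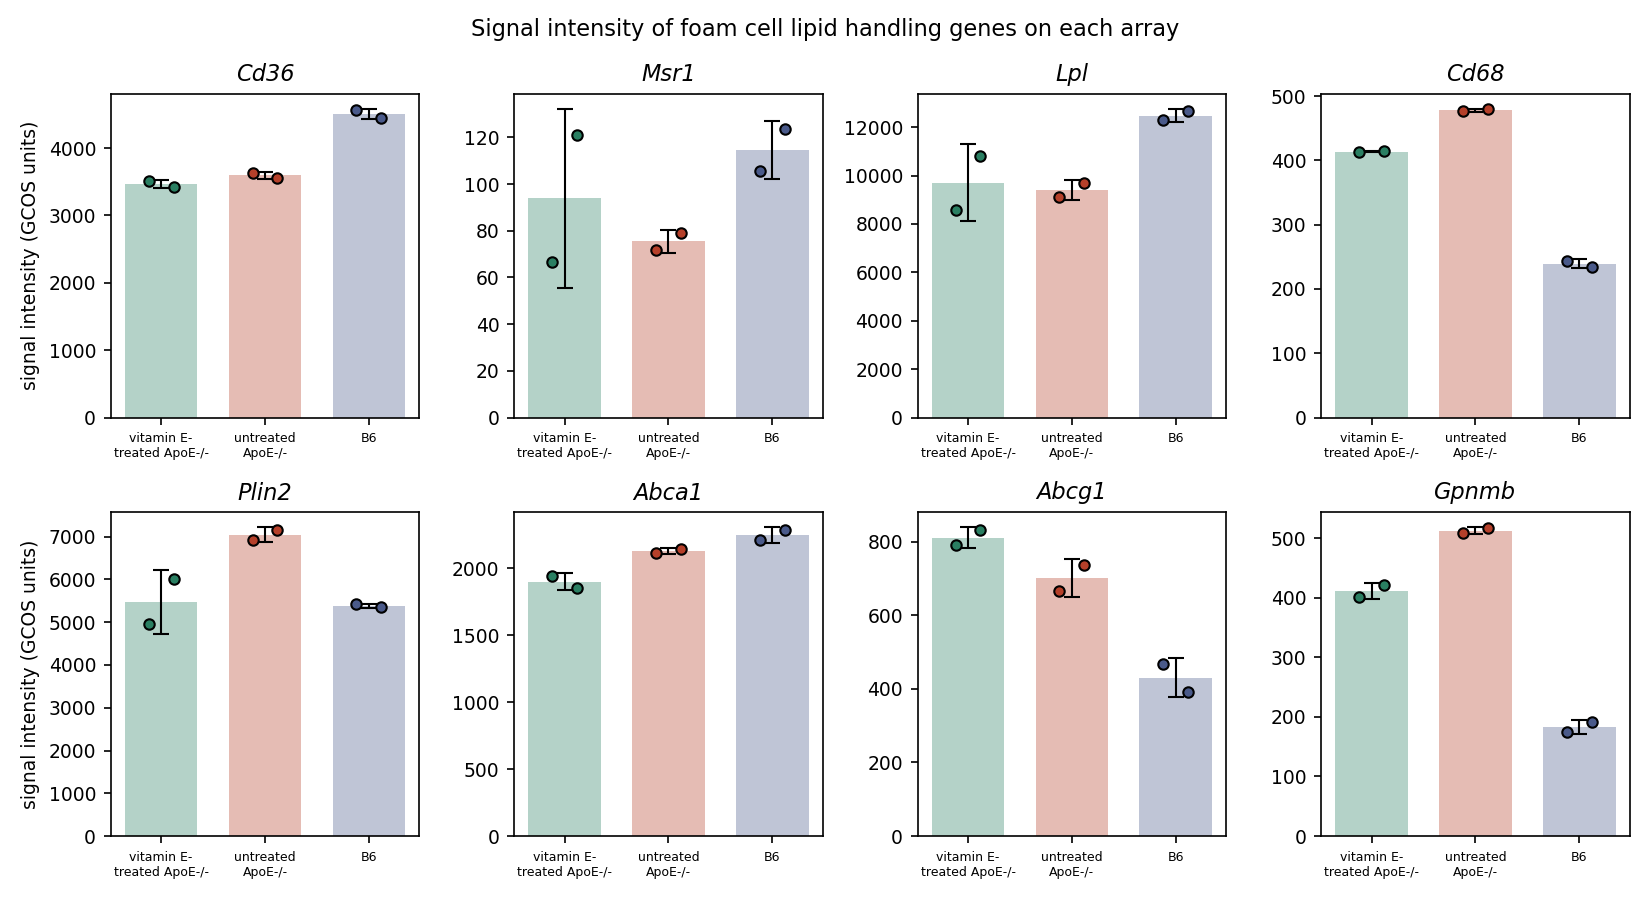
Signal intensity (linear GCOS units, each axis from 0) of the brightest probe set of the 8 tested genes in vitamin E-treated ApoE-/-, untreated ApoE-/- and B6 aortas. Points are single arrays, bars are means of 2 arrays and error bars are SD. B6 arrays lie lowest for Cd68, Abcg1 and Gpnmb and highest for Cd36 and Lpl, and the untreated ApoE-/- arrays lie highest for Plin2.

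The regions in front of 4 of the genes are printed because Gpnmb and Cd68 rose most in untreated ApoE-/- aortas, Plin2 was called after vitamin E, and Cd36 moved the other way. They are the 250 bases upstream of the RefSeq start site in build GRCm38.p6, at chr6:49036268-49036517 (plus strand), chr11:69666171-69666420 (minus strand), chr4:86670060-86670309 (minus strand) and chr5:17835897-17836146 (minus strand), written 5′ to 3′ on the gene's strand with matches to the motifs searched in capitals.
Gpnmb: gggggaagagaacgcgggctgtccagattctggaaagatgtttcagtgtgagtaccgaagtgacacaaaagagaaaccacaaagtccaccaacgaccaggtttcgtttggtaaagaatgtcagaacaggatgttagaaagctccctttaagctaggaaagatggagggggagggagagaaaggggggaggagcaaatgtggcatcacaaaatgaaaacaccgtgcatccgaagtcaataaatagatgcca
Cd68: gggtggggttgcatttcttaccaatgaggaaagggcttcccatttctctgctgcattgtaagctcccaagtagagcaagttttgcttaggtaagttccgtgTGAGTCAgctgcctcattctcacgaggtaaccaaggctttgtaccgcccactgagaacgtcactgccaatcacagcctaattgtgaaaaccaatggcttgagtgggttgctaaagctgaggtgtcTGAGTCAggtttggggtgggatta
Plin2: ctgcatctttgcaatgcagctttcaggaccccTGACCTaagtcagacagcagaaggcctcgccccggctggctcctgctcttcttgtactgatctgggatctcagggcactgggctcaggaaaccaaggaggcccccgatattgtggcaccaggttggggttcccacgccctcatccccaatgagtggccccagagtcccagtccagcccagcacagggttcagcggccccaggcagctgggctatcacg
Cd36: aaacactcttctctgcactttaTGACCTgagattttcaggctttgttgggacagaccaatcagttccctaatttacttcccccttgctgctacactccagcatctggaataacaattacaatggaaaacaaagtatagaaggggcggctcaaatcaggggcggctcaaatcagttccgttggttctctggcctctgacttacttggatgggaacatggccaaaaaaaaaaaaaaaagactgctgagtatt
Both strands were searched for the E-box CACGTG and the M-box core CATGTG, which factors of the MiT family bind, for the AP-1 site TGANTCA, for the PU.1 core GAGGAAG and for AGGTCA, the element that nuclear receptors such as PPAR and LXR recognise as a repeat. The Cd68 window held the AP-1 site at positions -149 and -24 from the start site, and the Plin2 and Cd36 windows held AGGTCA at -218 and -228. The Gpnmb window held no match. Among 32851 promoter windows of the same length, 6.02% held CACGTG, 12.3% CATGTG, 6.75% TGANTCA, 10.6% GAGGAAG and 14% AGGTCA. Matches of different motifs did not overlap in the 4 windows. A match describes the letters of the window and was not tested for binding.

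Cd36 encodes a class B scavenger receptor that binds oxidised LDL and carries long-chain fatty acids into cells. Its brightest probe set, 1450883_a_at, gave signal intensities of 3507 and 3420.4 on the vitamin E-treated, 3627 and 3558 on the untreated ApoE-/- and 4558 and 4453 on the B6 arrays. All 4 ApoE-/- arrays lay below both B6 arrays. The difference was 1.25-fold lower in untreated ApoE-/- relative to B6 aortas (log2 fold change -0.33 ± 0.06 SE, adjusted p = 0.00463 from limma) and 1.30-fold lower in vitamin E-treated ApoE-/- relative to B6 aortas (adjusted p = 0.00247). The call between untreated ApoE-/- and B6 aortas was lost without untreated array 2 (adjusted p = 0.0548) or B6 array 1 (adjusted p = 0.0528). Between vitamin E-treated and untreated ApoE-/- aortas the log2 fold change was -0.05 (95% interval -0.19 to 0.09, adjusted p = 0.590).

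The other probe sets of Cd36 also lay lowest after vitamin E and highest in B6 aortas. With 1450884_at the signal intensity was 776 and 722 on vitamin E-treated, 966 and 961 on untreated ApoE-/- and 1183 and 1197 on B6 arrays. No group overlapped another there, and this probe set was called in all comparisons, 1.29-fold lower in vitamin E-treated relative to untreated ApoE-/- aortas (adjusted p = 0.0116), 1.23-fold lower in untreated ApoE-/- relative to B6 aortas (adjusted p = 0.00862) and 1.59-fold lower in vitamin E-treated ApoE-/- relative to B6 aortas (adjusted p = 0.00029). The call after vitamin E was lost without untreated array 1 or 2 (adjusted p = 0.0840 and 0.0836) or with no filter on low values (0.0544), and the call between untreated ApoE-/- and B6 aortas when any array of these groups was left out (adjusted p of 0.0529 to 0.0607). With 1423166_at, the signal intensities were 3224 and 3103 on vitamin E-treated, 3429.5 and 3356 on untreated ApoE-/- and 3934 and 3882 on B6 arrays, and the calls were those of the brightest probe set. Its call between untreated ApoE-/- and B6 aortas was lost with no intensity trend or when any of their 4 arrays was left out, and that for vitamin E-treated ApoE-/- against B6 without B6 array 1 (adjusted p = 0.0599).

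Msr1, which encodes the class A scavenger receptor of macrophages, was dim. Probe set 1448061_at gave signal intensities of 66.7 and 121.0 on the vitamin E-treated, 72.0 and 79.0 on the untreated ApoE-/- and 105.8 and 123.4 on the B6 arrays. The vitamin E arrays lay further apart than the means of any pair of groups and overlapped both other groups. Only the B6 mean, 115, reached the signal intensity needed for testing, a selection that favours high B6 values. None of the comparisons was called. The log2 fold changes had wide 95% intervals, of -0.39 to 0.89 for vitamin E-treated against untreated ApoE-/-, -1.24 to 0.04 for untreated ApoE-/- against B6 and -0.99 to 0.30 for vitamin E-treated ApoE-/- against B6 aortas. When vitamin E array 1 or array 2 was left out, the difference between untreated ApoE-/- and B6 aortas passed the test (log2 fold change -0.60, adjusted p of 0.0223 without array 1 and 0.0258 without array 2), as it did in a fit of these 2 groups alone (0.0227). Without vitamin E array 2 the log2 fold change for vitamin E-treated ApoE-/- against B6 aortas was -0.78 (adjusted p = 0.0259). Of the 3 probe sets that were not tested, 1422062_at had 58.6 and 59.4 on vitamin E-treated, 32.6 and 33.9 on untreated ApoE-/- and 39.6 and 27.8 on B6 arrays, and the other two were under 22 on every array.

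In the list of lipid uptake receptors, which holds Cd36 and Msr1, 12 of 14 genes were tested. Between vitamin E-treated and untreated ApoE-/- aortas 2 were higher and 4 lower, and between untreated ApoE-/- and B6 aortas 2 were higher and 3 lower, with median log2 fold changes of -0.24 and -0.14. Of all genes tested, 8.18% were higher and 7.65% lower in the first comparison, and 21.2% and 20.8% in the other. When an untreated ApoE-/- or B6 array was left out, there were 2 or 3 calls in each of these comparisons. Vldlr, the VLDL receptor, had a signal intensity of 1268 and 909 in vitamin E-treated, 1571 and 1935 in untreated ApoE-/- and 1991 and 1978 in B6 aortas, and was 1.62-fold lower after vitamin E (adjusted p = 0.0258). Ager, the receptor for advanced glycation end products and a gene of alveolar type 1 cells, had 58.6 and 43.3 in vitamin E-treated, 223 and 216 in untreated ApoE-/- and 555 and 538 in B6 aortas. Marco, a scavenger receptor of alveolar macrophages among others, had 861 and 922 in vitamin E-treated, 603 and 541 in untreated ApoE-/- and 804 and 824 in B6 aortas, and was 1.56-fold higher after vitamin E (adjusted p = 0.00262). It was named after its values were seen. Of 12 alveolar macrophage markers 8 had a probe set and 4 were tested, Marco included. Siglecf, Chil3, F7 and Cd200r4 were too dim to test. Among these dim genes, Chil3 and F7 had their lowest means after vitamin E and Cd200r4 its highest, while Siglecf lay under the floor of 20. Of the 4 tested, 2 were higher after vitamin E, Marco and Fabp1, and 3 lower in untreated ApoE-/- relative to B6 aortas. The sum of the list was 1563 to 1649 in vitamin E-treated, 1067 to 1121 in untreated ApoE-/- and 3492 to 3732 in B6 aortas. Fabp1, which the liver list also holds, made up 9.79% to 62.7% of this sum, and without it the sums were 1299 to 1312 in vitamin E-treated, 963 to 1008 in untreated ApoE-/- and 1393 to 1410 in B6 aortas, with 1 of 3 tested genes higher after vitamin E and 2 lower in untreated ApoE-/- relative to B6 aortas. Of the other lung epithelium markers, 5 of the 7 tested were lower in vitamin E-treated relative to untreated ApoE-/- aortas. The summed signal intensity of the list without Ager was 10906 to 10940 in vitamin E-treated, 13823 to 14222 in untreated ApoE-/- and 16466 to 17118 in B6 aortas. Scgb1a1, which was not called after vitamin E, made up 68.6% to 90.6% of the sum of the whole list, and the sum without Scgb1a1 was 1029 to 1046 in vitamin E-treated, 3105 to 3164 in untreated ApoE-/- and 5339 to 5418 in B6 aortas. The part of lung tissue or alveolar macrophages in Msr1 and the other receptors was not tested.

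Lpl encodes lipoprotein lipase, which splits triglycerides of lipoproteins and is made by adipocytes, muscle and macrophages. Probe set 1415904_at gave signal intensities of 8571 and 10817 on the vitamin E-treated, 9121 and 9693 on the untreated ApoE-/- and 12279.8 and 12670.4 on the B6 arrays. The ApoE-/- groups overlapped each other, and both lay below B6. The signal intensity was 1.33-fold lower in untreated ApoE-/- relative to B6 aortas (log2 fold change -0.41 ± 0.11 SE, adjusted p = 0.0248) and 1.30-fold lower in vitamin E-treated ApoE-/- relative to B6 aortas (adjusted p = 0.0339). Both calls were lost whenever an untreated ApoE-/- or B6 array was left out, with adjusted p of 0.0936 to 0.151 for the first and 0.0717 to 0.172 for the other. With no filter both were also lost (adjusted p of 0.209 and 0.244), and the call for vitamin E-treated ApoE-/- aortas was lost too with no intensity trend (0.0633) and in a fit of the 2 groups (0.0714). Without vitamin E array 1, which had the lowest value, Lpl was called higher after vitamin E (log2 fold change 0.20, adjusted p = 0.0303), against a log2 fold change of 0.03 over all arrays (95% interval -0.23 to 0.30).

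The dimmer probe set of Lpl separated the groups further. With 1431056_a_at the signal intensity was 1806 and 1764 on vitamin E-treated, 2041 and 2142 on untreated ApoE-/- and 3619 and 3299 on B6 arrays. It was 1.65-fold lower in untreated ApoE-/- relative to B6 aortas (adjusted p = 0.000233) and 1.94-fold lower in vitamin E-treated ApoE-/- relative to B6 aortas (adjusted p = 8.24e-05), and both calls held whichever array was left out. The part of the transcript that each probe set detects was not examined. In the comparison of vitamin E-treated with untreated ApoE-/- aortas its adjusted p was 0.0651.

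Of 14 genes in the list of lipoprotein lipase and its partners 11 were tested, Lpl included, and 1 was higher and 6 lower in untreated ApoE-/- relative to B6 aortas (median log2 fold change -0.29, and 4 calls without untreated array 1 or either of the B6 arrays). Apoc1, Apoc3 and Apoa5, which encode apolipoproteins that modulate the lipase and are made mainly in liver, had log2 fold changes of -2.78, -2.48 and -2.79 there. The liver markers went the same way, with 11 of 12 lower in untreated ApoE-/- relative to B6 aortas and a summed signal intensity of 5220 to 5406 in vitamin E-treated, 5043 to 5108 in untreated ApoE-/- and 27656 to 27922 in B6 aortas. After vitamin E, 7 of these liver markers were higher and 1 lower relative to untreated ApoE-/- aortas. Apoc1 and Apoa5 were not called there (log2 fold changes -0.05 and 0.46). The part of liver in these values was not tested. Angptl4, a secreted inhibitor of the lipase, had 1575 and 1307 in vitamin E-treated, 1343 and 1201 in untreated ApoE-/- and 1569 and 1457 in B6 aortas, and was not called in any comparison. After vitamin E, only Apoc3 was called in this list, higher by 0.61 on the log2 scale (adjusted p = 0.00215), and 2 genes were called without vitamin E array 1.

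Markers of fat and muscle, which also use Cd36 and Lpl, went with these genes in some comparisons and not in others. The adipocyte sum and most skeletal muscle markers were lower in untreated ApoE-/- relative to B6 aortas, as Cd36 and Lpl were. Of 12 adipocyte markers tested, 4 were higher and 5 lower in untreated ApoE-/- relative to B6 aortas, against 21.2% and 20.8% of all genes. Their sum was 64069 to 74388 in vitamin E-treated, 67103 to 69818 in untreated ApoE-/- and 80572 to 81476 in B6 aortas. Of 14 skeletal muscle markers, 14 were higher in vitamin E-treated relative to untreated ApoE-/- aortas, where Lpl and the brightest probe set of Cd36 were not called, and 13 were lower in untreated ApoE-/- relative to B6 aortas, with sums of 62458 to 72021 in vitamin E-treated, 30097 to 30182 in untreated ApoE-/- and 53256 to 54117 in B6 aortas. Of 14 cardiac muscle markers 14 were higher in untreated ApoE-/- relative to B6 aortas, opposite to Cd36 and Lpl, and 13 lower after vitamin E, and the sums were 40031 to 43823 in vitamin E-treated, 72182 to 72616 in untreated ApoE-/- and 38709 to 39400 in B6 aortas. Pparg, the nuclear receptor that governs fat cell differentiation and activates Cd36 and Lpl, had 720.0 and 712 in vitamin E-treated, 925 and 930.1 in untreated ApoE-/- and 1431 and 1412 in B6 aortas, and was called in all comparisons. Its coactivator Ppargc1a fell by 1.81 on the log2 scale in untreated ApoE-/- against B6 aortas. Ppargc1a is also a brown adipocyte marker, and of 9 such markers tested 2 were higher and 3 lower in that comparison. The sum of the brown adipocyte list was 28322 to 32579 in vitamin E-treated, 33173 to 33371 in untreated ApoE-/- and 34829 to 34870 in B6 aortas. The part of fat or muscle in the values of Cd36 and Lpl was not tested.

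Cd68 encodes macrosialin, a glycoprotein of macrophage lysosomes that serves as a macrophage stain. Probe set 1449164_at gave signal intensities of 413 and 414 on the vitamin E-treated, 476 and 479 on the untreated ApoE-/- and 244 and 235 on the B6 arrays. The arrays of a group lay close together, no group overlapped another, and the untreated ApoE-/- group was highest. Cd68 was 2.0-fold higher in untreated ApoE-/- relative to B6 aortas (log2 fold change 1.0 ± 0.08 SE, adjusted p = 0.000108) and 1.73-fold higher in vitamin E-treated ApoE-/- relative to B6 aortas (adjusted p = 0.00034). Both calls held whichever array was left out. The log2 fold change of -0.21 between vitamin E-treated and untreated ApoE-/- aortas was not called (95% interval -0.39 to -0.02, adjusted p = 0.121).

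Macrophage markers outside the 10 genes were mostly higher in ApoE-/- than in B6 aortas. Of 21 tested, 13 were higher and 1 lower in untreated ApoE-/- relative to B6 aortas (median log2 fold change 0.53, against 0.02 over all genes), and the calls ranged from 10 to 15 when single arrays were left out. For vitamin E-treated ApoE-/- against B6 aortas 12 were higher and 1 lower (8 calls without B6 array 2). Between vitamin E-treated and untreated ApoE-/- aortas 2 were higher and 5 lower, with 0 calls without untreated array 1, 1 without untreated array 2 or without either of the B6 arrays, and 4 without vitamin E array 1. Lyz2, the lysozyme of myeloid cells, had 6773 and 6871 in vitamin E-treated, 7229 and 7513 in untreated ApoE-/- and 4317 and 4253 in B6 aortas. Ptprc, the leukocyte antigen CD45, was 1.18-fold higher after vitamin E (adjusted p = 0.0455), whereas Fcer1g, the common chain of Fc receptors, was 1.4-fold lower (adjusted p = 0.00539). Ptprc is shared by all leukocytes, and of 10 thymocyte and T cell markers tested 5 were higher after vitamin E and 10 in untreated ApoE-/- relative to B6 aortas, with sums of 11852 to 12081 in vitamin E-treated, 6838 to 7895 in untreated ApoE-/- and 1915 to 1993 in B6 aortas. Their part in the value of Ptprc was not tested. C1qc, a chain of complement C1q that tissue macrophages make, was 2.22-fold higher in untreated ApoE-/- relative to B6 aortas (adjusted p = 3.73e-05) and 1.21-fold lower after vitamin E (adjusted p = 0.0446). The summed signal intensity of the list was 29065 to 29797 in vitamin E-treated, 30622 to 30692 in untreated ApoE-/- and 21999 to 22150 in B6 aortas.

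Genes of lysosomal lipid handling include the acid hydrolases that free cholesterol from lipoproteins. Of 17 tested, 6 were higher and 0 lower in untreated ApoE-/- relative to B6 aortas (7 and 0 at an unadjusted p under 0.05, median log2 fold change 0.19), and the calls rose to 10 or 11 without a vitamin E array. Tfeb, a transcription factor of lysosome biogenesis, had a signal intensity of 265 and 338 in vitamin E-treated, 257 and 338 in untreated ApoE-/- and 153 and 138 in B6 aortas, and was 2.03-fold higher in untreated ApoE-/- relative to B6 aortas (adjusted p = 0.0031). Ctsz, a lysosomal cathepsin, was 1.57-fold higher there (adjusted p = 0.000182). Ctsb and Psap, the brightest genes of the list, were not called in that comparison, in which 21.2% of all genes were higher and 20.8% lower. After vitamin E, limma called 0 of the 17 against untreated ApoE-/- aortas (median log2 fold change -0.11), with 0 higher and 2 lower at an unadjusted p under 0.05, and 3 calls without vitamin E array 1 or 1 without array 2.

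Plin2 encodes perilipin 2, which coats cytoplasmic lipid droplets and marks lipid-laden cells. Its probe set 1448318_at gave signal intensities of 4948 and 6008 on the vitamin E-treated, 6922 and 7166 on the untreated ApoE-/- and 5419 and 5353 on the B6 arrays. The untreated ApoE-/- group was highest and overlapped neither other group, and the vitamin E arrays lay on either side of the B6 arrays. The summed signal of the cardiac muscle markers was likewise highest in untreated ApoE-/- aortas and close to B6 after vitamin E. The adipocyte sum was highest in B6 aortas, although the adipocyte gene Lipe, described below, was highest in untreated ApoE-/- aortas. The part of cardiac muscle or fat in the values of Plin2 was not tested. Plin2 was 1.29-fold lower in vitamin E-treated relative to untreated ApoE-/- aortas (log2 fold change -0.37 ± 0.10 SE, adjusted p = 0.0422) and 1.31-fold higher in untreated ApoE-/- relative to B6 aortas (adjusted p = 0.016). After vitamin E, Plin2 differed from B6 aortas by a log2 fold change of 0.02 (95% interval -0.21 to 0.24). The direction of the first difference held without each array, yet its call was lost without untreated array 1 (adjusted p = 0.162), untreated array 2 (0.218), B6 array 1 (0.102) or B6 array 2 (0.0996), as well as with no filter (0.246), no intensity trend (0.0879) or a fit of the 2 groups (0.106). The call between untreated ApoE-/- and B6 aortas was lost without the same arrays, with adjusted p of 0.0723 to 0.105, and with no filter (0.143). Without vitamin E array 1, the log2 fold change for vitamin E-treated ApoE-/- against B6 aortas was 0.16 (adjusted p = 0.0240), and without array 2 it was -0.12.

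Of 15 tested genes of lipid droplets and cholesteryl esters, Plin2 included, 1 was higher and 5 lower in vitamin E-treated relative to untreated ApoE-/- aortas. Without untreated array 1 there were 0 calls, and there was 1 call without untreated array 2 or without either of the B6 arrays. Between untreated ApoE-/- and B6 aortas 3 were higher and 7 lower, so that most calls ran opposite to Plin2 (4 to 6 calls when an array of these groups was left out). Mgll, which cleaves monoglycerides, had a signal intensity of 2513 and 2559 in vitamin E-treated, 3709 and 3571 in untreated ApoE-/- and 4512 and 3928 in B6 aortas, and was 1.44-fold lower after vitamin E (adjusted p = 0.0063). G0s2, an inhibitor of triglyceride lipolysis, had 2154 and 2362 in vitamin E-treated, 1834 and 1773 in untreated ApoE-/- and 2921 and 3009 in B6 aortas, and was the gene of the list called higher after vitamin E (1.25-fold, adjusted p = 0.0207). Abhd5, the coactivator of that lipolysis, was 1.78-fold lower in untreated ApoE-/- relative to B6 aortas (adjusted p = 0.00103). Beside the counts of this list, 8.18% of all genes were higher and 7.65% lower after vitamin E. Between untreated ApoE-/- and B6 aortas these shares were 21.2% and 20.8%.

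The genes whose log2 signal intensities ran most like those of Plin2 over the 6 arrays were Lipe (r = 0.996), Nfkbib (r = 0.9955), Pef1 (r = 0.9954), Pgm5 (r = 0.9944) and Plaur (r = 0.994). Lipe, the hormone-sensitive lipase of adipocytes, was chosen by this likeness and had signal intensities of 2497 and 2919.8 in vitamin E-treated, 3283 and 3397 in untreated ApoE-/- and 2763 and 2698 in B6 aortas. For Lpl, the gene of the 10 with the highest mean signal intensity, they were Atp5a1 (r = 0.9985), Ptpn14 (r = 0.9974), Ndufs8 (r = 0.9963), Slc16a9 (r = 0.9961) and Cgref1 (r = 0.9954). With 6 arrays in 3 groups such values are common, and 69 genes passed r = 0.95 with Plin2 and 143 with Lpl.

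Abca1 and Abcg1 encode transporters that export cholesterol, the first to lipid-poor apolipoprotein A-I and the other to HDL, and both are targets of the sterol sensor LXR. Probe set 1421840_at of Abca1 gave signal intensities of 1944 and 1853 on the vitamin E-treated, 2115 and 2144 on the untreated ApoE-/- and 2209 and 2289 on the B6 arrays. The groups did not overlap but lay close, and the untreated ApoE-/- group did not pass the test against either neighbour (log2 fold change -0.17 of vitamin E-treated against untreated ApoE-/-, adjusted p = 0.109, and -0.08 of untreated ApoE-/- against B6, adjusted p = 0.332). Abca1 was 1.18-fold lower in vitamin E-treated ApoE-/- relative to B6 aortas (adjusted p = 0.0156), a call that was lost without B6 array 1 (adjusted p = 0.0659) or array 2 (adjusted p = 0.110), with quantile normalization (0.0591) and with no intensity trend (0.0547). Without vitamin E array 1 Abca1 was called lower in vitamin E-treated relative to untreated ApoE-/- aortas (log2 fold change -0.20, adjusted p = 0.038). Its 2 other probe sets were dim and not tested, and both were higher on the ApoE-/- than on the B6 arrays. With 1421839_at the signal intensities were 60.9 and 67.5 on vitamin E-treated, 68.1 and 62.5 on untreated ApoE-/- and 50.5 and 52.8 on B6 arrays. Those of 1450392_at ran from 14.3 to 27.8, under 20 on both B6 arrays.

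By their brightest probe sets, Abcg1 went the other way from Abca1 against B6 aortas, although Abca1 was not called there in untreated ApoE-/- aortas. Probe set 1423570_at gave signal intensities of 792 and 831 on the vitamin E-treated, 666 and 738 on the untreated ApoE-/- and 468 and 392 on the B6 arrays. Among the 8 tested genes it alone had its highest mean in the vitamin E-treated group with the lowest in B6. Abcg1 was 1.64-fold higher in untreated ApoE-/- relative to B6 aortas (log2 fold change 0.71 ± 0.10 SE, adjusted p = 0.00147) and 1.89-fold higher in vitamin E-treated ApoE-/- relative to B6 aortas (adjusted p = 0.000494). Both calls held whichever array was left out. The difference between vitamin E-treated and untreated ApoE-/- aortas was not called (log2 fold change 0.21, 95% interval -0.03 to 0.45, adjusted p = 0.201). A second probe set, 1455221_at, had 132 and 116 on vitamin E-treated, 111 and 140.0 on untreated ApoE-/- and 81.8 and 86.2 on B6 arrays. Its calls against B6 had the same direction (adjusted p = 0.0331 for untreated and 0.035 for vitamin E-treated ApoE-/- aortas), and both were lost when B6 array 1 or array 2 was left out, the first also without untreated array 2 and the other also without vitamin E array 1, with quantile normalization or with median centring. With no filter neither was called. Only the ApoE-/- means of this probe set, 124 with vitamin E and 125 untreated, reached the signal intensity needed for testing. The B6 mean was 84.0, so this selection favours calls in that direction.

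Genes of cholesterol efflux and LXR did not share 1 direction. Of 11 tested, Abca1 and Abcg1 included, 3 were higher and 1 lower in untreated ApoE-/- relative to B6 aortas (median log2 fold change 0.08), with 1 or 2 calls when an array of these groups was left out. Between vitamin E-treated and untreated ApoE-/- aortas 0 were higher and 1 lower (0 and 4 at an unadjusted p under 0.05, median log2 fold change -0.16), and the call was lost without untreated array 1 or 2, while there were 3 calls without vitamin E array 1. Srebf1, an LXR target that drives fatty acid synthesis, was that gene, with 2284 and 2543 in vitamin E-treated, 3164 and 3173 in untreated ApoE-/- and 3579.8 and 3470.1 in B6 aortas. Nr1h3, which encodes LXR alpha, had 202 and 230.2 in vitamin E-treated, 254 and 271 in untreated ApoE-/- and 209 and 225 in B6 aortas and was not called in any comparison. Pltp, the phospholipid transfer protein, was 1.25-fold higher in untreated ApoE-/- relative to B6 aortas (adjusted p = 0.0117). Beside the counts of this list, 21.2% of all genes were higher and 20.8% lower in untreated ApoE-/- relative to B6 aortas. After vitamin E these shares were 8.18% and 7.65%.

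Gpnmb encodes a transmembrane glycoprotein of lipid-laden and lysosome-stressed macrophages, and had the largest difference of the 8 tested genes against B6 aortas. Probe set 1448303_at gave signal intensities of 402 and 421 on the vitamin E-treated, 509 and 517 on the untreated ApoE-/- and 174 and 192 on the B6 arrays. No group overlapped another, and the vitamin E-treated group lay between the other two. Gpnmb was 2.81-fold higher in untreated ApoE-/- relative to B6 aortas (log2 fold change 1.49 ± 0.09 SE, adjusted p = 3.12e-05) and 2.25-fold higher in vitamin E-treated ApoE-/- relative to B6 aortas (adjusted p = 0.000106). Both calls held whichever array was left out. Between vitamin E-treated and untreated ApoE-/- aortas the log2 fold change of -0.32 just missed the threshold (95% interval -0.53 to -0.11, adjusted p = 0.0526), and it passed with quantile normalization (adjusted p = 0.0481) and with median centring (adjusted p = 0.0269). Its second probe set, 1439345_at, was under 20 on every array, and the promoter printed above held no match to the motifs searched.

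Trem2 encodes a lipid receptor of foam cells and microglia that signals through the adaptor Tyrobp. Neither probe set of Trem2 was tested. With 1421792_s_at the signal intensity was 9.98 and 8.41 on the vitamin E-treated, 17.8 and 18.5 on the untreated ApoE-/- and 4.05 and 6.44 on the B6 arrays, and 1421226_at lay between 1.46 and 16.6. All of these values lie under the floor of 20, below which no order is given.

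The Trem2-type list holds genes that mark lipid-associated macrophages in plaques, and 6 of the 10 genes belong to it. Its counts therefore repeat calls given above. In untreated ApoE-/- relative to B6 aortas these are Cd68, Gpnmb and Plin2 among the higher and Lpl among the lower genes. After vitamin E, Plin2 is among the lower genes. Of all genes, 21.2% were higher and 20.8% lower in the first comparison, and 8.18% and 7.65% after vitamin E. Of its 14 tested genes, 7 were higher and 3 lower in untreated ApoE-/- relative to B6 aortas (6 calls without untreated array 1, median log2 fold change 0.25), and 0 rose while 3 fell in vitamin E-treated relative to untreated ApoE-/- aortas (0 and 6 at an unadjusted p under 0.05, median log2 fold change -0.13). The calls after vitamin E fell to 0 without untreated array 1 or 2 and to 1 without B6 array 1 or 2. Mmp12, the macrophage elastase, had 58.5 and 56.7 in vitamin E-treated, 118 and 99.3 in untreated ApoE-/- and 3.93 and 15.5 in B6 aortas. Both B6 arrays were under 20, so that Mmp12 was at least 5.41-fold higher in untreated ApoE-/- relative to B6 aortas (adjusted p = 0.000124) and at least 2.88-fold higher in vitamin E-treated ApoE-/- relative to B6 aortas (adjusted p = 0.00111), each against the floor of 20. It was 1.88-fold lower after vitamin E (adjusted p = 0.0246). Only the untreated ApoE-/- mean of Mmp12, 109, reached the signal intensity needed for testing. This selection favours high values in that group, so its calls there are less certain than those of brighter genes. Itgax, which encodes the integrin CD11c and was named after its values were seen, had 244 and 228 in vitamin E-treated, 253 and 281 in untreated ApoE-/- and 113 and 133 in B6 aortas. Apoc1, which the lipase list also holds, had the largest change of the list against B6 and was lower in both ApoE-/- groups. It had 386 and 355 in vitamin E-treated, 371 and 394 in untreated ApoE-/- and 2745 and 2501 in B6 aortas. Fabp5, the brightest gene of the list, was not called in any comparison.

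**Figure D2:**
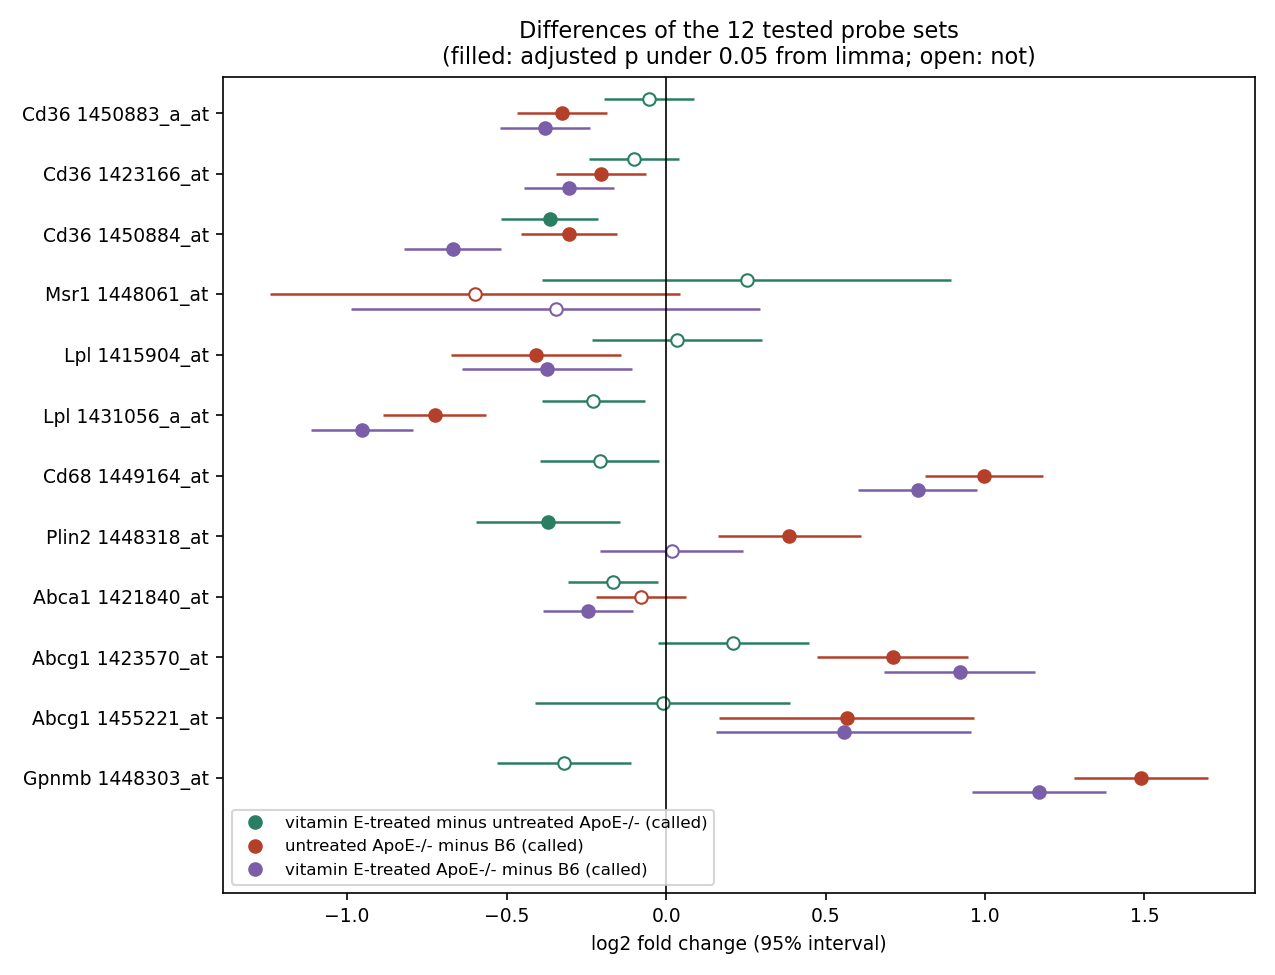
Log2 fold changes of the 12 tested probe sets, with 95% intervals, for vitamin E-treated minus untreated ApoE-/- (green), untreated ApoE-/- minus B6 (red) and vitamin E-treated ApoE-/- minus B6 (purple). Filled points passed an adjusted p under 0.05. Gpnmb, Cd68 and Abcg1 lie to the right of 0 against B6, Cd36 and Lpl to the left, and Msr1 has the widest intervals.

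**Figure D3:**
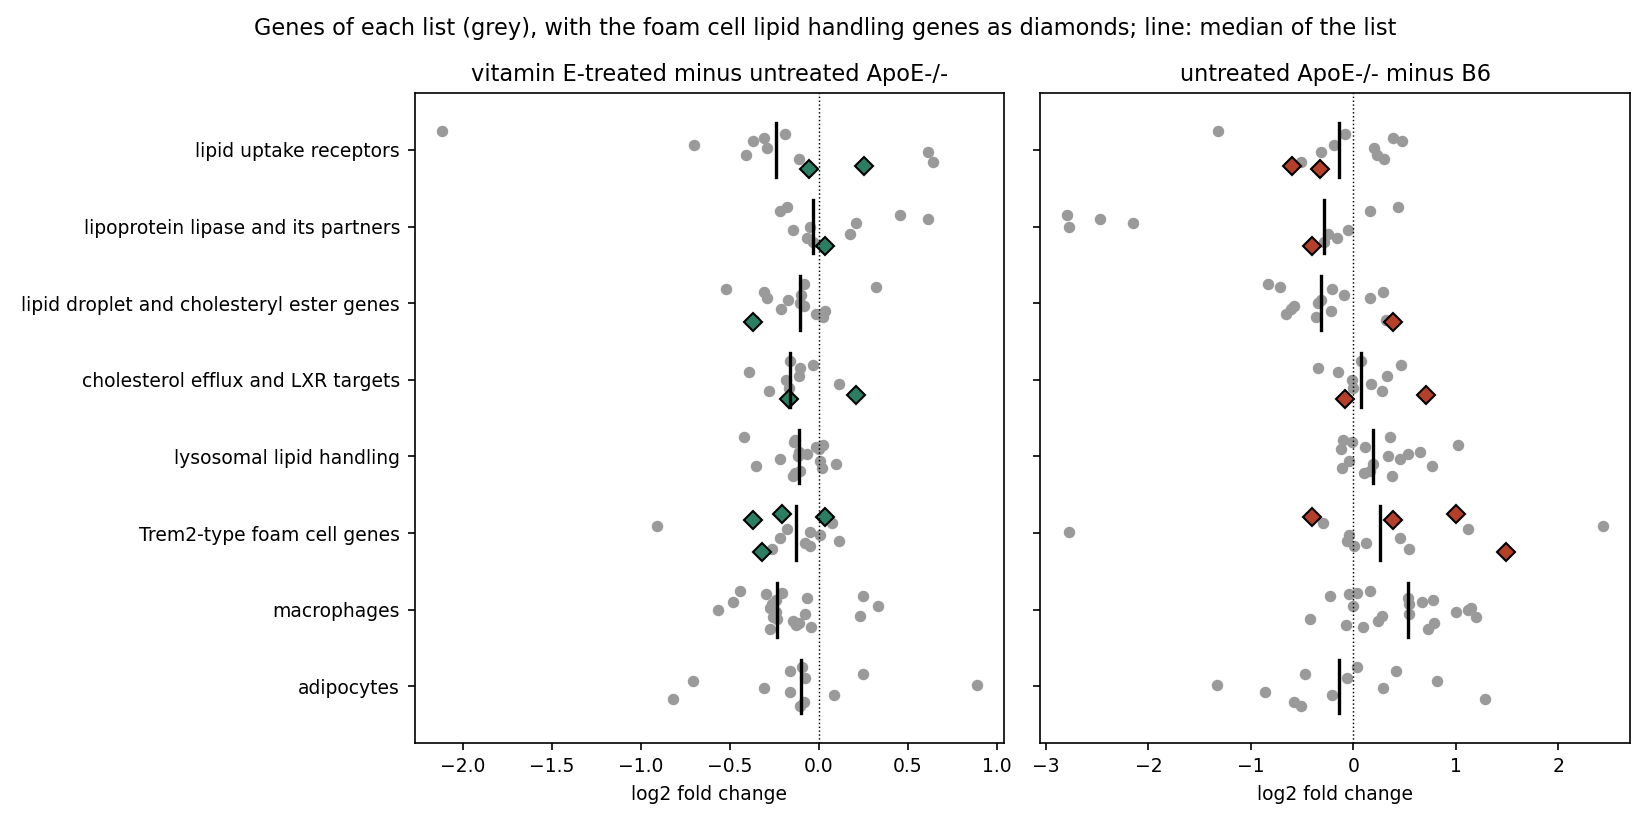
Log2 fold changes of the tested genes of 8 lists, for vitamin E-treated minus untreated ApoE-/- (left) and untreated ApoE-/- minus B6 (right), with the genes described here as diamonds, other genes in grey and the median of each list as a black line. The macrophage list has its median at -0.24 on the left and at 0.53 on the right, and the lipid droplet list at -0.11 and -0.32, with Plin2 to the left of the line in the first panel and to the right of it in the other.

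Across the series, Apoe itself had a signal intensity of 40.5 and 45.3 in vitamin E-treated and 93.2 and 57.4 in untreated ApoE-/- aortas, against 5209 and 5432 in B6 aortas. The aortic label was checked with 11 markers of contractile smooth muscle, all tested, whose summed signal was 20202 to 21054 in vitamin E-treated, 22167 to 22673 in untreated ApoE-/- and 23072 to 23778 in B6 aortas. The mean signal intensity of an array was 305 to 319. The summed signal of the poly-A labelling controls was 4550 to 4671 on vitamin E-treated, 3535 to 3651 on untreated ApoE-/- and 12521 to 12605 on B6 arrays. The 3′ to 5′ ratio of Gapdh was 1.15 and 1.24 on vitamin E-treated, 1.03 and 1.06 on untreated ApoE-/- and 1.35 and 1.34 on B6 arrays. That of beta-actin was 1.64 and 1.64 on vitamin E-treated, 1.78 and 1.88 on untreated ApoE-/- and 2.01 and 2.06 on B6 arrays, which puts the ApoE-/- groups in the other order, so that measures of labelling and RNA differed along with the groups and cannot be told apart from them.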

How the data were processed

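Total RNA of mouse aortas was hybridised to Affymetrix whole-genome arrays, and the authors computed 1 signal intensity per probe set and array with GCOS, scaled per array, before the values were deposited on a linear scale. Present calls and captopril arrays were not analysed here. A floor of 20 was applied before log2. Group means were estimated over the 6 arrays in limma 3.58.1 (R 4.3.3), with variances shrunk towards a trend on intensity, for the 17909 probe sets with a group mean of at least 100 (3 residual and 4.46 prior degrees of freedom). P-values were adjusted over these by the Benjamini-Hochberg method. Symbols came from the array annotation, which gave 34945 probe sets 1 symbol, of which 34741 matched RefSeq of GRCm38.p6. The promoter table held 6 of the 10 genes. The 10 genes and the lists were chosen with earlier results of these data known. Besides them, the text names from each list genes among the 2 brightest and the 2 with the largest change per comparison, and the 5 genes most correlated with Lpl and with Plin2. Sums without Fabp1, Ager or Scgb1a1 were chosen after seeing the data. The 2 arrays of a group are separate pools of aortas, and whether pools shared mice was not given in the sources used here. P-values measure the spread between these pools only, and their number limits the precision. In simulated data for untreated ApoE-/- against B6, limma recovered 86 of 100 probe sets changed 2-fold and 98 of 100 changed 4-fold, with 10 false calls among 17061 probe sets. Only these probe sets were changed there, and all were bright. The rates do not carry over to dim probe sets, smaller differences or data with many more changes. Alternatives were quantile normalization, median centring, other floors and filters, no trend, a fit of the groups compared, the replicate block, each array left out, the mean of a gene's probe sets and the methods' t-test.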

Additional observations from a re-analysis of the deposited data

How the results depend on the processing

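Replicate numbers did not pair the arrays (correlation of deviations 0.05, 0.05 and -0.10 for vitamin E-treated against untreated ApoE-/-, untreated ApoE-/- against B6, and vitamin E-treated ApoE-/- against B6), and with the replicate block 1, 6 and 6 of the 8 genes were called, as without it. Calls among the 8 genes between vitamin E-treated and untreated ApoE-/- aortas (1 in the main analysis) were 2 with quantile normalization, median centring or the mean of a gene's probe sets, 0 with no filter, no trend, a fit of the 2 groups or the methods' t-test, and 0 to 3 without single arrays. Of 12 probe sets (2 called) they were 4 with median centring, 1 with no trend or a fit of the 2 groups, 0 with no filter or the t-test, and 0 to 4 without single arrays. Between untreated ApoE-/- and B6 aortas the methods' t-test with its 2-fold limit called 1 gene and 1 probe set (main 6 and 10), and after Benjamini-Hochberg 4 genes and 5 probe sets, on either scale, and single arrays left out gave 3 to 7 genes and 4 to 11 probe sets. Against B6, vitamin E-treated ApoE-/- aortas gave 1 gene by that t-test and 1 probe set, 0 after Benjamini-Hochberg (main 6 and 10), and single arrays left out gave 4 to 7 genes and 6 to 11 probe sets. Over all 17909 probe sets tested, the main analysis called 1526 higher and 1251 lower after vitamin E. Between untreated ApoE-/- and B6 aortas these numbers were 3879 and 3426, and for vitamin E-treated ApoE-/- against B6 they were 3928 and 3440. Among the 12 probe sets, Cd36, Lpl and Abcg1 have more than 1 each. Median centring shifted all log2 fold changes by -0.08, -0.07 and -0.15 in the order above. For 36 probe set comparisons the alternatives gave 633 values in all, those of the methods' t-test judged by its own p and 2-fold limits. Of these values, 518 kept direction and side of the threshold, 93 lost a call, 11 gained one and 11 turned direction. Those that turned were not called in the main analysis. Lpl (1415904_at) after vitamin E was -0.12 with quantile normalization, -0.050 with median centring, -0.10 with the mean of its probe sets and -0.13 to 0.20 without single arrays. Without single arrays, Msr1 (1448061_at) after vitamin E was -0.18 to 0.68 and against B6 -0.78 to 0.083, and Abcg1 (1455221_at) after vitamin E was -0.18 to 0.16. Plin2 in vitamin E-treated ApoE-/- against B6 was -0.14 with median centring and -0.12 to 0.16 without single arrays. The cause of these shifts was not tested. For 249 comparisons of list genes the alternatives gave 4470 values, of which 67 turned direction, and 0 of these were called in the main analysis.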
